A study of Mus musculus with 24 samples.

Results

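The response of mouse macrophages to interferon gamma (IFNg) given together with bacterial lipopolysaccharide (LPS) was measured at 1 h, by setting 3 RNA sequencing libraries of cells that received LPS with IFNg against 3 libraries of cells that received LPS without it. These were 6 of the 24 libraries of a series of wild-type C57BL/6 macrophages that were left unstimulated or given LPS, LPS with IFNg, or IL-4, and taken at 1 h or 18 h. All cells were grown from bone marrow with CSF-1, which macrophages need to grow, at 20 ng/mL, were used at day 7 of culture, and stayed in CSF-1 during stimulation, so the LPS group is no untreated control. IFNg was used at 50 ng/mL. The labels give LPS as 20 or 100 ng/mL without saying which group had which dose, so the addition of IFNg and any difference in LPS dose cannot be told apart. The question was which genes differ in the first hour when IFNg joins LPS. Of 43629 genes in each file, 12765 had enough counts to be tested, and all of these were compared. Whether the replicates of a group were separate animals or cultures is not stated, so the p-values speak only of the scatter among these libraries, which may be technical.

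LPS is sensed by TLR4 with CD14, and its adaptors start NF-kappaB, MAP kinase and interferon beta signals. IFNg binds a receptor of IFNGR1 and IFNGR2 chains with the kinases JAK1 and JAK2. Factors activated by these kinases bind gamma-activated sites (GAS) in DNA, and the IRF factors made in response bind interferon-stimulated response elements (ISRE). In macrophages the combination is known for the induction of nitric oxide synthase, IL-12, antigen presentation and the GTPases that attack vacuoles of intracellular pathogens.

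Depth and cell identity came first. The 6 libraries held 4181890 to 6185554 counts. Levels are given as CPM, counts scaled to 1e+06 per TMM-adjusted library, and a group without counts could hold up to 0.224 CPM (LPS) or 0.188 CPM (LPS with IFNg) taking 3 counts over its libraries as the limit, for counting error only. All 10 macrophage markers were tested, and their summed level was 18700 to 19800 CPM with LPS and 17600 to 20400 CPM with IFNg added. Fcgr1 and Fcgr3, which encode Fc receptors for antibody, were called higher with log2 fold changes of 0.78 and 0.85, and Cd14 was called lower. Of 11 T and NK cell markers, Cd3e, Cd8a, Prf1, Ncr1 and Ifng itself had no count in any of the 6 libraries, Cd4 had 168 counts (3.39 to 8.26 CPM), Klrb1c 14, and Cd3d, Cd3g, Cd2 and Gzma 1 each. The sum of the list was 4.94 to 7.73 CPM with LPS and 3.59 to 8.79 CPM with IFNg added. The neutrophil list summed to 190 to 203 CPM and 202 to 268 CPM, with Cxcr2 its 1 called member of 7 tested, and its part in the results was not tested. Dendritic cell markers summed to 7.86 to 9.51 CPM and 4.85 to 7.04 CPM, and fibroblast and endothelium markers to 2.24 to 2.5 CPM and 3.95 to 4.38 CPM. Neither pair of ranges overlapped, no member of these lists was called, and their part in the results was not tested. In bulk libraries, fewer cells of a type and less RNA per cell cannot be told apart.

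The levels of 1502 genes, 11.8% of those tested, differed between LPS with IFNg and LPS at 1 h by edgeR's quasi-likelihood test with Benjamini-Hochberg adjusted p below 0.05. There were 832 genes called higher (6.52%) and 670 called lower (5.25%). A change of at least 2-fold was seen in 343 genes called higher (2.69%) and 155 called lower (1.21%), and one of at least 8-fold in 64 and 8 genes. The median log2 fold change over all tested genes was 0.0025. With scaling to library size alone, 687 genes were called higher and 1011 lower, so that 40.5% of calls were higher against 55.4% here. The libraries of the groups did not overlap for 1643 genes with higher (12.9%) and 1552 genes with lower (12.2%) values, many of them not called. Genes called higher by at least 2-fold had a median level of 7.75 CPM in unstimulated cells at 1 h, 11.1 CPM with LPS and 45.6 CPM with IFNg added. For those called lower by at least 2-fold the medians were 6.04, 12.7 and 4.88 CPM.

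**Figure D1:**
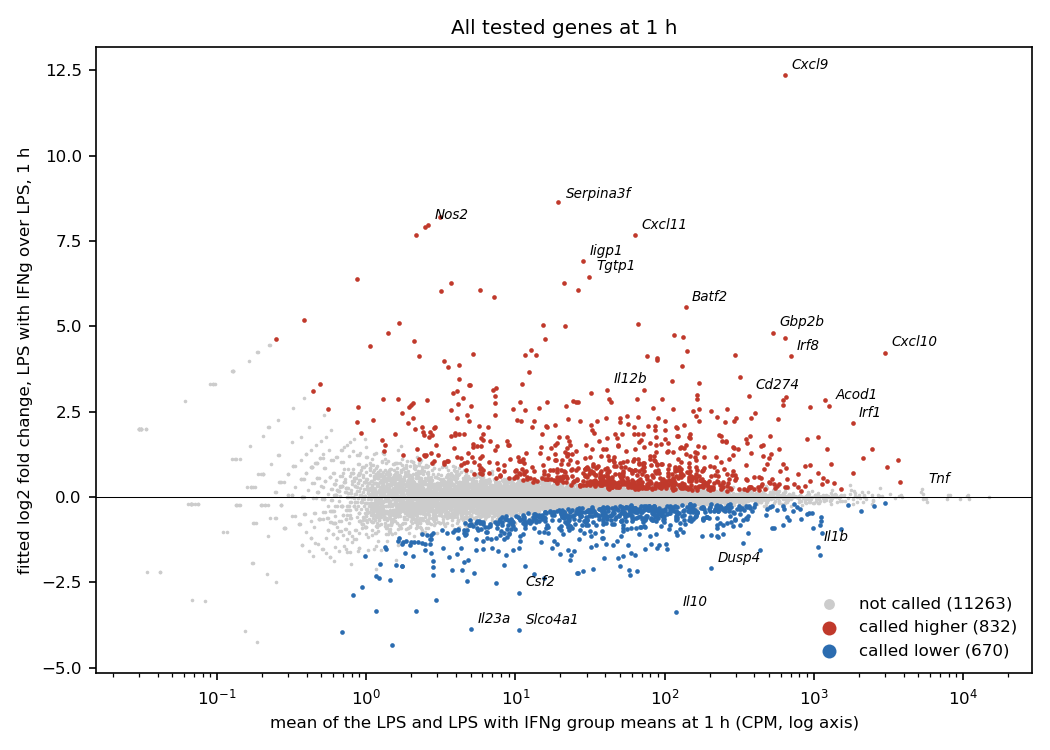
Fitted log2 fold change of LPS with IFNg over LPS at 1 h (vertical axis) against the mean of the group means in CPM (horizontal log axis), 1 point per tested gene. Red points are the 832 genes called higher and blue points the 670 called lower, and Cxcl9 stands at the top with a log2 fold change of 12.35.

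Among named genes of at least 5 CPM over the 6 libraries, with predicted genes left out, the 7 largest increases were in chemokines that attract T cells, serpins and interferon-induced GTPases. Cxcl9, a ligand of the receptor CXCR3, was at 0.204, 0.449 and 0 CPM in the LPS libraries and at 1318, 1238 and 1289 CPM in those with IFNg. The groups were far apart, and the ratio of CPM was 5720 with an exact 95% counting interval of 1960 to 27700. In unstimulated cells Cxcl9 was at 1.80, 0 and 0 CPM. Serpina3f, a serine protease inhibitor of a multigene cluster, had counts in 1 LPS library and was at 34.5 to 41.5 CPM with IFNg, a ratio of 515 (92.1 to 20400). Its neighbour Serpina3g was at 0.204, 0.225 and 0 CPM and then at 10.6, 10.8 and 12.9 CPM, a ratio of 76.5 (20.9 to 636). Reads can be split between such close copies, so the share of each is uncertain.

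Batf2, a transcription factor of the AP-1 type, was at 6.72, 5.61 and 4.75 CPM with LPS and at 270.9, 250.2 and 294.3 CPM with IFNg. Unstimulated cells were at 6.91 to 8.45 CPM, and Batf2 overlaps Arl2 on the opposite strand. The log2 fold change was 5.56 ± 0.15 (SE, n = 3 per group, edgeR adjusted p = 5.4e-22). Lck, a kinase best known from T cells, was at 0.407, 0 and 0.25 CPM with LPS and 15.19, 12.95 and 14.36 CPM with IFNg, a ratio of 63.2 (21.4 to 309), and the level of T and NK cell markers in these libraries is given above; their part in this result was not tested. Cd207, which encodes the lectin langerin of Langerhans cells, went from 0.449 to 1.42 CPM to 18.5 to 43.8 CPM, with a log2 fold change of 5.03 ± 0.40 (SE). Separation of the libraries was a condition for naming Batf2, Lck and Cd207, so it adds no support. Trim30c, of the interferon-induced Trim30 cluster, was at 0.674 to 1.75 CPM with LPS and 35.5 to 47.4 CPM with IFNg.

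**Figure D2:**
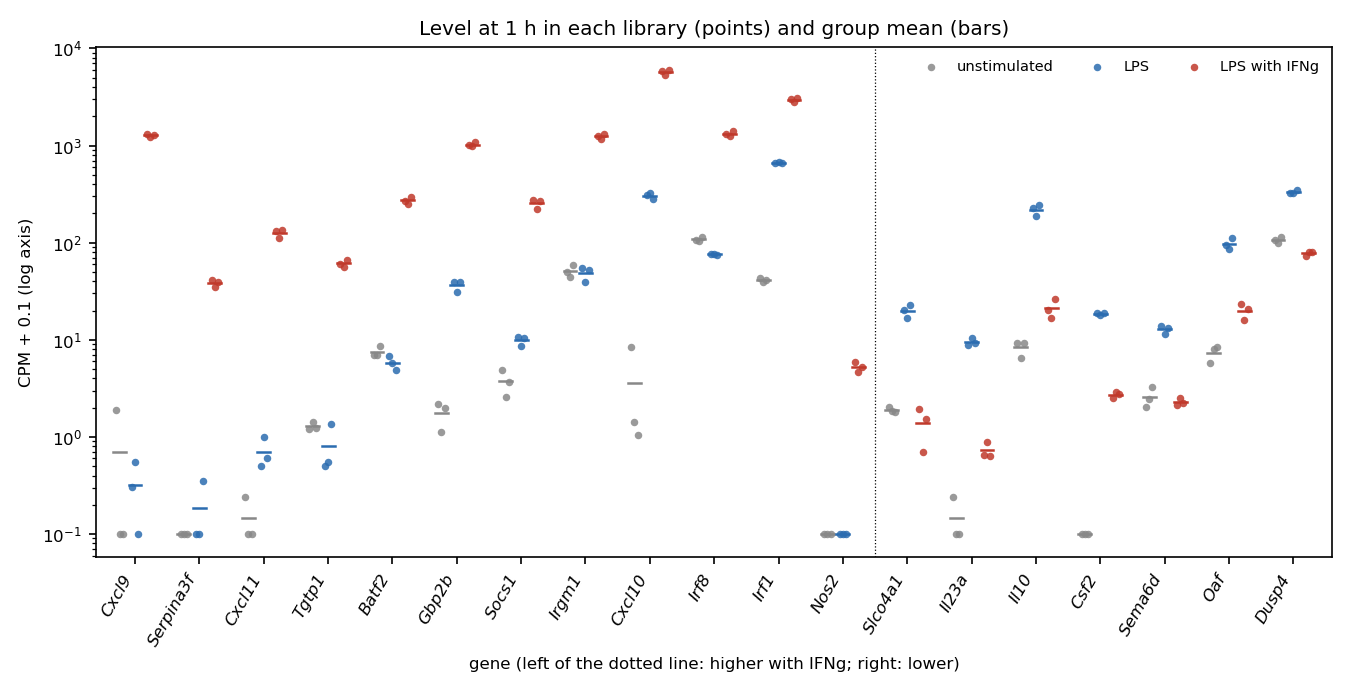
Level of 19 genes at 1 h as CPM + 0.1 on a log axis, with a point for each library and a bar for the group mean, for unstimulated cells, LPS, and LPS with IFNg. The 12 genes on the left were higher and the 7 on the right lower in every library with IFNg than in every LPS library. For those named for the size of their change, this was a condition of naming.

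Promoters of the genes named for the size of their change are shown because GAS and ISRE letters are where the factors of this pathway are known to bind. Entries of RefSeq (GRCm38.p6) were matched for 9362 of the 12765 tested genes. The 250 bases before the start were searched on both strands for TTCNNNGAA (GAS) and the ISRE (GAAA, any 2 bases, GAAA), which may overlap each other. Of all 9362 promoters 5.89% held the GAS letters and 2.89% the ISRE letters. Of 9 entries among the genes with the largest increases 6 held a match, and of 7 among those with the largest decreases 1 did, in the gene of the small GTPase Rhof. Cxcl9, Lck and Cd207 held neither. Among the genes called higher that had an entry, 10.6% held GAS and 9.32% ISRE letters, and among those called lower 4.11% and 1.37%. Fewer than 80% of genes had an entry (73.5% of those called higher by at least 2-fold), so a comparison of these sets is void. The 140 bases before the start follow for the 6 genes with a match and for Irf1 and Socs1, which were chosen after their matches were seen, 5′ to 3′ on the gene's strand, with matches in capitals. A match is a description of letters and not a bound site.
Serpina3f (chr12:104214404-104214543, strand +): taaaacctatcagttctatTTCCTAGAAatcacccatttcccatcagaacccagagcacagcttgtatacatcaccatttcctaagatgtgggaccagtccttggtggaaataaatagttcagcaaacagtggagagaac
Tgtp1 (chr11:48992247-48992386, strand -): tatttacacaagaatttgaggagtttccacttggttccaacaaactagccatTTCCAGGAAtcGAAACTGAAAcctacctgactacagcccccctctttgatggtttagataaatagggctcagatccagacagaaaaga
Serpina3g (chr12:104236007-104236146, strand +): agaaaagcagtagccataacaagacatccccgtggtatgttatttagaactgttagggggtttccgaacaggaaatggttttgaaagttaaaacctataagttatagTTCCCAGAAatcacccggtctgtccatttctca
Tgtp2 (chr11:49064213-49064352, strand -): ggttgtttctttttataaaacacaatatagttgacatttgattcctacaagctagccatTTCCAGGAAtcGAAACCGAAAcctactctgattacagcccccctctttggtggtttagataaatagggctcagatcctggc
Trim30c (chr7:104400779-104400918, strand -): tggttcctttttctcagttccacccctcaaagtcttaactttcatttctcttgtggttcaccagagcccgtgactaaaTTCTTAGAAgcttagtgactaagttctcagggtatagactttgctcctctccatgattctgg
Gbp2b (chr3:142594707-142594846, strand +): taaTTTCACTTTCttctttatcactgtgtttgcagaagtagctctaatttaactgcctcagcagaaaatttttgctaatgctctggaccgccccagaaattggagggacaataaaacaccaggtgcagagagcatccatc
Irf1 (chr11:53769874-53770013, strand +): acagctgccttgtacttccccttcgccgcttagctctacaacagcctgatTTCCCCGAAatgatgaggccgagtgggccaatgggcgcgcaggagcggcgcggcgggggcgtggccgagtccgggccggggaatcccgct
Socs1 (chr16:10785537-10785676, strand -): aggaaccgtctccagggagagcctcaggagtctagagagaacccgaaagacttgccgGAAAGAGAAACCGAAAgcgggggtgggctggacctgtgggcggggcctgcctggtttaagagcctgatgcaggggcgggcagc

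Tgtp1 and Tgtp2, near-identical copies on chromosome 11 that encode immunity-related GTPases, held both motifs side by side. Their GAS letters began 88 and 81 bases before the start, and their ISRE letters 77 and 70 bases before it. In Irf1 the GAS letters began 90 bases before the start. Socs1 held overlapping ISRE matches in 1 stretch of capitals.

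Of 18 genes of the IFNg receptor and its signal, 10 were called higher and 2 lower, with a median log2 fold change of 0.41. Over all tested genes 6.52% were called higher and 5.25% lower, the shares to set beside this and every later list count. No list was tested as a set. Both receptor chains fell: Ifngr1 was at 281.2, 263.4 and 274.7 CPM with LPS and at 183.2, 178.7 and 174.4 CPM with IFNg, by -0.61 ± 0.07 on the log2 scale (SE), and Ifngr2 by -0.72 ± 0.07. The groups did not overlap for either chain, as for 12.2% of all tested genes with lower values. The kinase gene Jak1 was called higher with a log2 fold change of 0.25, and Jak2 was not called (log2 -0.16, edgeR adjusted p = 0.59). Stat3, a target of cytokine receptors and itself a STAT factor, rose from 106.7 to 129.1 CPM to 341.1 to 401.8 CPM, a log2 fold change of 1.65 ± 0.10, and overlaps Stat5a on the opposite strand. Stat2 rose by 1.02 and Irf9, its partner, by 0.69.

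Among the inhibitors in this list, Socs1, Socs3, Cish and Ptpn2 rose, and Ptpn6, Ptpn11, Pias1 and Usp18 were not called (log2 0.17, 0.03, 0.09 and 0.29). Socs1, which blocks JAK kinases, was at 10.6, 8.53 and 10.3 CPM with LPS and at 275.7, 222.1 and 269.6 CPM with IFNg, a log2 fold change of 4.70 ± 0.13 (edgeR adjusted p = 7.2e-22). Unstimulated cells were at 2.50 to 4.84 CPM. Socs3, already at 1211 to 1471 CPM with LPS, was at 2830 to 3070 CPM with IFNg. Cish, a related inhibitor, rose by 2.24 ± 0.13 on the log2 scale.

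Of 12 tested IRF and interferon beta genes, 5 were called higher and 1 lower. Irf1 was at 659.5, 673.7 and 659.0 CPM with LPS and 3003, 2827 and 3090 CPM with IFNg, against 39.2 to 42.9 CPM in unstimulated cells. The 3 groups did not overlap, with a log2 fold change of 2.16 ± 0.07 (edgeR adjusted p = 2.3e-20). Irf8, a factor of the macrophage lineage, was at 75.9, 76.8 and 74.8 CPM with LPS, below the 104.3 to 115.1 CPM of unstimulated cells, and at 1321, 1249 and 1405 CPM with IFNg. That gave a log2 fold change of 4.13 ± 0.08. Irf7, which amplifies type I interferon, rose by 1.06 ± 0.19. Ifnb1, the gene of interferon beta itself, fell from 29.3, 23.6 and 24.5 CPM to 11.1, 11.2 and 9.69 CPM, by -1.28 ± 0.16 (edgeR adjusted p = 1.2e-06).

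All 8 immunity-related GTPase genes were called higher, each by at least 2-fold, with a median log2 fold change of 4.88 against 0.0025 over all tested genes. Irgm1, a regulator of this family, was at 54.9, 39.3 and 51.8 CPM with LPS and 1244, 1164 and 1312 CPM with IFNg. Iigp1, an effector that loads on pathogen vacuoles, was at 0.25 to 0.674 CPM and then at 47.6 to 63.8 CPM, a log2 fold change of 6.91 ± 0.27. Of 8 tested guanylate-binding protein genes 6 were called higher and none lower, with a median of 3.78. Gbp2b was at 38.9, 30.8 and 39.3 CPM with LPS and 1010, 981.9 and 1077 CPM with IFNg. Gbp2 rose by 4.17 ± 0.14 and Gbp7 by 4.76 ± 0.19. Gbp8 and Gbp11 were not called, at no more than 0.741 CPM in any of the 6 libraries, and Gbp5, Gbp6 and Gbp10 were not analysed here. The members of both families are close copies of each other, and how the authors counted shared reads is not given in the sources used here.

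Genes known best as type I interferon targets rose as a list, while Ifnb1 fell. Of 36 tested, 26 were called higher and none lower, with a median log2 fold change of 0.98. Slfn5, a Schlafen gene that restricts viruses, rose from 104.4 to 198.6 CPM to 1089 to 1199 CPM. Mx2, annotated as a polymorphic pseudogene, and Ifit2, an antiviral effector, rose by 2.62 ± 0.18 and 2.61 ± 0.15. The change was uneven across the list. Isg15 rose by 0.35 on the log2 scale, and Usp18 (0.29), Bst2 (-0.10) and Oas1g (0.20) were not called.

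**Figure D3:**
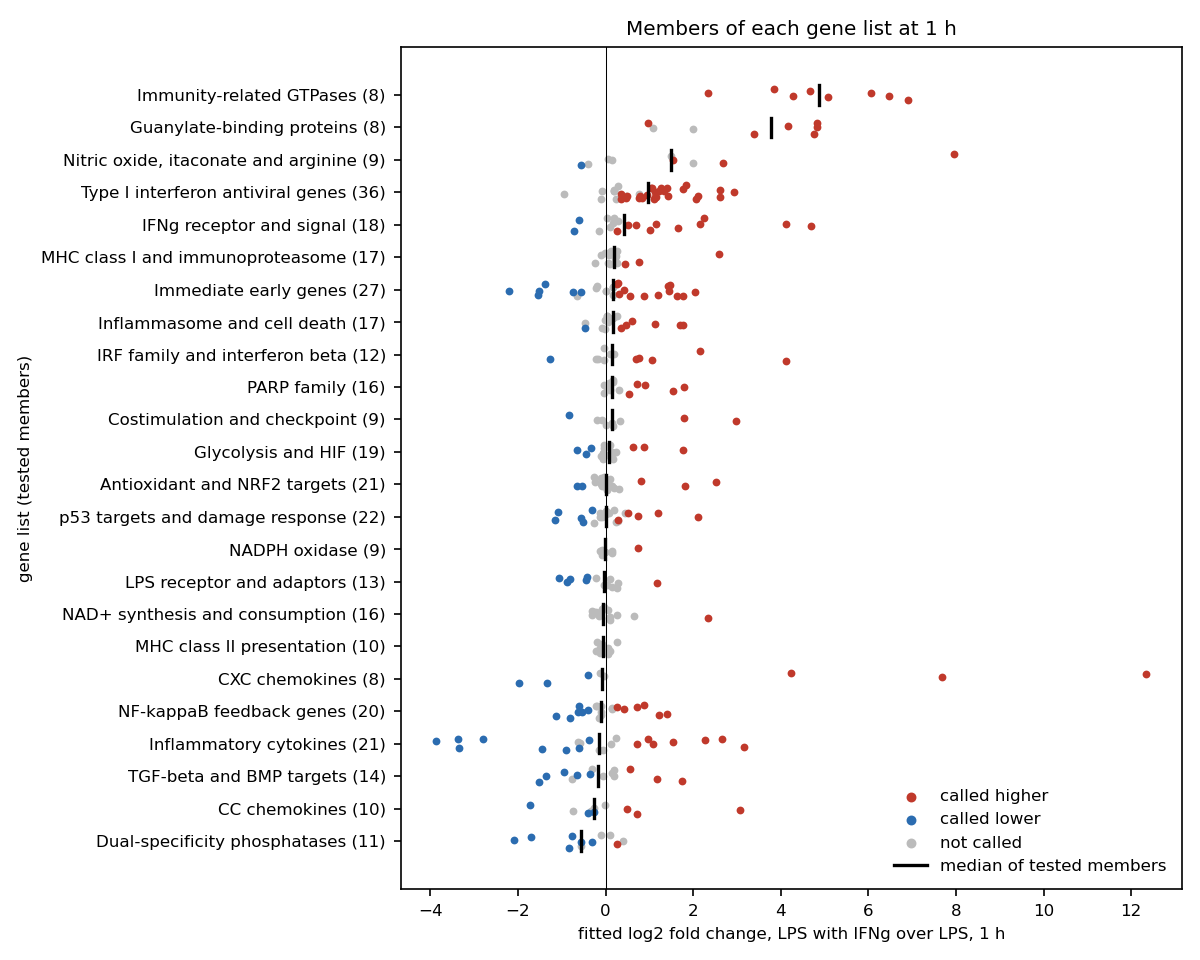
Fitted log2 fold change of LPS with IFNg over LPS at 1 h for every tested member of the 24 gene lists, ordered by list median (black bars), with the number tested in brackets. Red points were called higher, blue lower and grey not called, and the immunity-related GTPases (median 4.88) and guanylate-binding proteins (3.78) stand at the top and the dual-specificity phosphatases (-0.57) at the bottom.

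Of 8 tested CXC chemokine genes, Cxcl9, Cxcl10 and Cxcl11, known as CXCR3 ligands, were called higher, and the neutrophil attractants Cxcl1, Cxcl2 and Cxcl3 were called lower. Cxcl11 is annotated as a polymorphic pseudogene. Cxcl10 was at 308.1, 322.9 and 282.5 CPM with LPS and 5832, 5304 and 5969 CPM with IFNg. Cxcl11 was at 0.407 to 0.898 CPM and then at 112.0 to 135.0 CPM, a log2 fold change of 7.67 ± 0.22. Cxcl10 overlaps Art3 on the opposite strand, and the strand setting of the count is not given in the sources used here. Cxcl1 fell from 466.0, 527.7 and 452.1 CPM to 194.4, 177.7 and 199.9 CPM, by -1.34 ± 0.11, Cxcl2 by -0.41 ± 0.08 and Cxcl3 by -1.98 ± 0.26. Of 10 tested CC chemokines 3 rose and 3 fell. Ccl12, a monocyte attractant, was at 6.51 to 7.01 CPM and then at 54.8 to 58.8 CPM. Ccl22, a ligand of CCR4, fell from 65.6 to 88.7 CPM to 18.9 to 29.1 CPM.

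Among 21 tested cytokine genes 7 were called higher and 8 lower. Il12b, the p40 subunit shared by IL-12 and IL-23, was at 10.4, 9.43 and 4.75 CPM with LPS and 75.8, 71.7 and 75.4 CPM with IFNg, a log2 fold change of 3.15 ± 0.21. Il23a, the subunit that makes IL-23 with p40, went the other way, from 8.75, 10.3 and 9.26 CPM to 0.556, 0.797 and 0.538 CPM, by -3.87 ± 0.35 (edgeR adjusted p = 6.2e-09). The subunit Il12a was too low to test, at no more than 0.556 CPM in any of the 6 libraries. Il6 rose from 3.66 to 6.06 CPM to 12.8 to 13.6 CPM. Il1rn, which encodes the IL-1 receptor antagonist, rose from a mean of 260.4 to 1635 CPM, and Il1b, whose product it blocks, fell from 1307 to 1783 CPM to 427.1 to 719.5 CPM. Il1a was not called, at 416.8 to 469.1 CPM with LPS and 401.2 to 451.6 CPM with IFNg (log2 -0.05, edgeR adjusted p = 0.88).

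Il10, the gene of an anti-inflammatory cytokine of macrophages, was at 224.9, 186.4 and 244.2 CPM with LPS and at 20.4, 16.7 and 26.4 CPM with IFNg, against 6.47 to 9.26 CPM in unstimulated cells. The log2 fold change was -3.36 ± 0.13 (edgeR adjusted p = 3.5e-18). Csf2, which encodes GM-CSF, fell from 18.9, 17.7 and 18.8 CPM to 2.41, 2.79 and 2.69 CPM, and Csf3, which encodes G-CSF, from 1.572 to 3.002 CPM to 0.18 to 0.199 CPM. Csf3 had 3 counts with IFNg, and its ratio was 11.2 (exact 95% counting interval 3.45 to 57.4). Tnf was not called, at 4821 to 5041 CPM with LPS and 5657 to 5856 CPM with IFNg (log2 0.23, edgeR adjusted p = 0.16). It was called under 3 alternatives, at adjusted p down to 0.0043. Its groups did not overlap, but that held for 12.9% of all tested genes with higher values, many of them not called.

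The other genes with the largest decreases were higher with LPS alone than in unstimulated cells, without overlap of the libraries. Slco4a1, an organic anion transporter, was at 20.4, 16.8 and 22.5 CPM with LPS and 1.85, 0.598 and 1.44 CPM with IFNg, against 1.69 to 1.94 CPM in unstimulated cells. The semaphorin Sema6d went from 11.45 to 13.63 CPM to 2.04 to 2.39 CPM. Non-overlap of the groups was a condition for naming either gene. Oaf fell by -2.29 ± 0.13, Rhof by -2.24 ± 0.22, Plat, the gene of tissue plasminogen activator, by -2.17 ± 0.15, and Rgs16, a brake on G protein signals, by -2.21 ± 0.21. The factor gene Egr3 fell by -2.21 ± 0.18 and H2-M2, a non-classical MHC gene, by -2.21 ± 0.39. Rhof, Rgs16 and Csf2 overlap a gene on the opposite strand.

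Of 13 tested genes of the LPS receptor and its adaptors, 5 were called lower and 1 higher. Cd14 fell from 1477, 1230 and 1524 CPM to 811.6, 694.4 and 897.4 CPM, by -0.82 ± 0.09, and Tlr2 fell by -1.06 ± 0.08. Myd88, the adaptor of most Toll-like receptors, rose by 1.18 ± 0.08, while Ticam1, the adaptor for interferon beta, fell by -0.89 ± 0.09. Tlr4 itself was not called (log2 -0.03).

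Of 20 NF-kappaB feedback genes 6 rose and 6 fell, with a median of -0.11. The inhibitor Nfkbia was at 1943 to 1993 CPM with LPS and 1596 to 1792 CPM with IFNg. It was not called (log2 -0.20, edgeR adjusted p = 0.067), though 6 alternatives called it at adjusted p down to 0.0021. Tnfaip3, which encodes the deubiquitinase A20, was not called either (log2 0.15, edgeR adjusted p = 0.34). Tnip3 rose by 1.41 ± 0.07 and Birc3 by 1.22 ± 0.10, and Nfkbie fell by -1.14 ± 0.10. The call of Nfkbiz (log2 0.25, edgeR adjusted p = 0.043) was lost without any 1 of the 6 libraries (adjusted p up to 0.12) and with median-of-ratios or library size scaling (0.062 and 0.21).

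Among 27 immediate early genes 13 were called higher and 6 lower, with a median of 0.18. Jun rose from 126.2 to 129.1 CPM to 377.2 to 404.7 CPM and Egr1 from 60.4 to 77.1 CPM to 171.6 to 199.9 CPM. Zfp36, whose product degrades cytokine mRNA, rose from a mean of 1342 to 3602 CPM. Fos was not called (log2 -0.19), and Myc fell from 152.6 to 160.2 CPM to 105.4 to 107.8 CPM. Dual-specificity phosphatases, which switch off MAP kinases, had 6 of 11 called lower, 1 higher and a median of -0.57. Dusp4 fell from 323.6, 324.5 and 350.8 CPM to 73.6, 80.7 and 80.1 CPM and Dusp7 by -1.70 ± 0.12. The 1 called higher, Dusp16, was not called when any of the 6 libraries was left out. Of 14 tested TGF-beta and BMP targets 3 rose and 5 fell. Bambi was higher with IFNg by 1.74 ± 0.26 and Smad6 by 1.18 ± 0.30, though the Smad6 call was lost under some alternatives. Both were lower with LPS than in unstimulated cells. Means in unstimulated cells, with LPS and with IFNg added were 7.92, 2.73 and 9.07 CPM for Bambi. For Smad6 they were 8.56, 2.52 and 5.59 CPM. Id3 fell by -1.36 ± 0.12 and Smad7 by -1.51 ± 0.26. Id1 was not called (log2 -0.77, edgeR adjusted p = 0.13), though 2 alternatives called it, at adjusted p down to 0.011. The groups did not overlap for Id1, but that held for 12.2% of all tested genes with lower values, many of them not called.

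None of 10 tested MHC class II genes, which encode antigen presentation to helper T cells, was called, with a median of -0.06. With 11.8% of all tested genes called, a count of 0 in a list of this size is near the background. Ciita, the master activator of this class, was at 9.88 to 14.3 CPM with LPS and 14.2 to 15.3 CPM with IFNg (log2 0.27 ± 0.17, edgeR adjusted p = 0.45). Of 17 MHC class I and immunoproteasome genes 3 were called higher, beside 6.52% called higher over all tested genes. Tap1, a subunit of the peptide transporter, rose from 45.0 to 52.3 CPM to 266.9 to 305.5 CPM, a log2 fold change of 2.59 ± 0.08. Psmb9 rose by 0.77 ± 0.12, but it overlaps Tap1 on the opposite strand. Nlrc5, the class I activator, was called at 0.45 ± 0.13, a call lost with library size scaling and without any 1 of 3 libraries, with adjusted p up to 0.17. Cd274, which encodes the checkpoint ligand PD-L1, was at 80.8, 71.4 and 98.6 CPM and then at 622.6, 657.6 and 677.7 CPM. Cd40, a costimulatory receptor, rose by 1.79 ± 0.11, while Icosl of the same list fell by -0.84 ± 0.11. Cd80 and Cd86 were not called.

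Of 9 tested nitric oxide, itaconate and arginine genes, 3 were called higher and 1 lower. Their median log2 fold change of 1.5 was unstable, at 0.08 to 1.45 when 1 library was left out. Ido1, a member above that median that was not called (log2 1.99), had 0 counts with LPS and 1 with IFNg. Of these effector enzymes, Nos2, the inducible nitric oxide synthase, had no count in any LPS or unstimulated library at 1 h. Nos2 was at 5.74, 4.58 and 5.21 CPM with IFNg. It was at least 23.1-fold higher, set against 3 counts over the LPS group. Acod1, which makes itaconate, was at 364.3, 285.0 and 384.3 CPM and then at 2253, 2023 and 2327 CPM, a log2 fold change of 2.68 ± 0.12. Of 9 tested NADPH oxidase genes Nox1 was called (0.74 ± 0.22), a share near the 11.8% of all tested genes, a call lost with DESeq2 and without any 1 of 4 libraries, with adjusted p up to 0.15. Cybb, its catalytic relative in phagocytes, was not called (log2 -0.12). Nampt, which catalyses the slowest step of NAD+ salvage, was the 1 called member of 16 tested NAD+ genes, a share near the 6.52% called higher over all tested genes, at 133.1, 127.8 and 117.1 CPM with LPS and 638.1, 594.2 and 675.0 CPM with IFNg. Among 16 PARP genes 5 rose and none fell, led by Parp9 (1.78 ± 0.09) and Parp14 (1.53 ± 0.12). Parp1, which responds to DNA breaks, was not called (log2 0.04).

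In the remaining lists most members were not called, but each had a larger share called than the 11.8% of all tested genes. No test of the lists was made. Of 22 p53 targets 5 rose and 5 fell. Fas, a death receptor, rose from 5.698 to 7.859 CPM to 29.4 to 30.5 CPM, Bbc3, which encodes PUMA, fell by -1.15 ± 0.17, and Cdkn1a was not called (log2 0.20). Of 21 antioxidant genes 3 rose and 2 fell. The metallothioneins Mt2 and Mt1 rose by 2.52 ± 0.11 and 1.82 ± 0.11, and Hmox1 was not called, at 357.7 to 364.0 CPM and 366.3 to 372.8 CPM. Of 17 inflammasome and cell death genes 6 rose and 1, Nlrp3, fell. The nucleic acid sensor Zbp1 rose by 1.76 ± 0.16 and the kinase Ripk1 by 1.70 ± 0.10. Of 19 glycolysis genes 3 rose and 3 fell, with hexokinase Hk2 at 1.77 ± 0.11 and the transporter Slc2a6 at -0.66 ± 0.10.

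Genes called higher by at least 2-fold formed 12 runs of 3 or more neighbours among tested genes. The runs are not all separate places, since those at 48861968-48992226 and 48946150-49135387 of chromosome 11 overlap. How many runs would be found without clustering was not computed. These included Gbp7, Gbp3, Gbp2b, Gbp2 and Mir6381 within 108 kb of chromosome 3 (GRCm38), Cxcl9, Art3, Cxcl10 and Cxcl11 within 93.3 kb of chromosome 5, and Parp14, Dtx3l and Parp9 within 140 kb of chromosome 16. Immunity-related GTPases formed runs on chromosome 11, with Gm12250, Igtp and Irgm2 within 35 kb. Many of these neighbours are copies of each other. Others overlap on opposite strands: Dtx3l with Parp9, Art3 with Cxcl10, Mir6381 with Gbp2, and Gm17040 and Gm17041 with Cish. The part of shared reads in these runs was not tested. Genes called lower by at least 2-fold had a median genomic span of 9.25 kb, against 16.8 kb for those called higher by at least 2-fold and 20.6 kb over all tested genes. No test was made of these spans.

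At 18 h the same comparison called 6051 genes (47.4%), 3059 higher (24%) and 2992 lower (23.4%). The times share no library. Of the 832 genes higher at 1 h, 454 were higher at 18 h too, 54.6% of the early and 14.8% of the late list, and 130 were lower. Of the 670 lower at 1 h, 185 were lower at 18 h, 27.6% of the early and 6.18% of the late list, and 213 were higher. The effect itself differed between the times for 4463 genes (35%) by an interaction contrast in the same edgeR fit, with a log2 effect more positive at 18 h for 2103 (16.5%) and more negative for 2360 (18.5%). The sign is that of the difference and not of the size of the effect: 1811 of the 2360 were not called at 1 h and lower at 18 h, and 180 of the 2103 were lower at 1 h and not called at 18 h. Of 15 genes compared across time 13 differed.

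Cxcl9 was at 144.1 ± 10.4 CPM (SD, n = 3) with LPS at 18 h and 3898 ± 74.7 CPM with IFNg added. Its level was thus higher at 18 h than at 1 h in both groups, while the fold between them was smaller, by -7.59 ± 0.43 on the log2 scale (SE, edgeR adjusted p = 2.8e-14). Ciita was at 4.07 ± 0.57 CPM with LPS and 185.7 ± 3.66 CPM with IFNg at 18 h, and its log2 effect was larger there by 5.23 ± 0.25 (edgeR adjusted p = 8.9e-16). Il10 was low in both groups at 18 h, 7.934 ± 1.99 and 4.895 ± 0.88 CPM, and its effect was less negative by 2.66 ± 0.30. Socs3, higher with IFNg at 1 h, was at 500.0 ± 11.7 and 531.1 ± 7.27 CPM at 18 h (log2 0.09, edgeR adjusted p = 0.57). Nampt had log2 effects of 2.33 ± 0.07 and 2.14 ± 0.07 at 1 h and 18 h, with a difference of -0.20 ± 0.10 that was not called (edgeR adjusted p = 0.12).

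**Figure D4:**
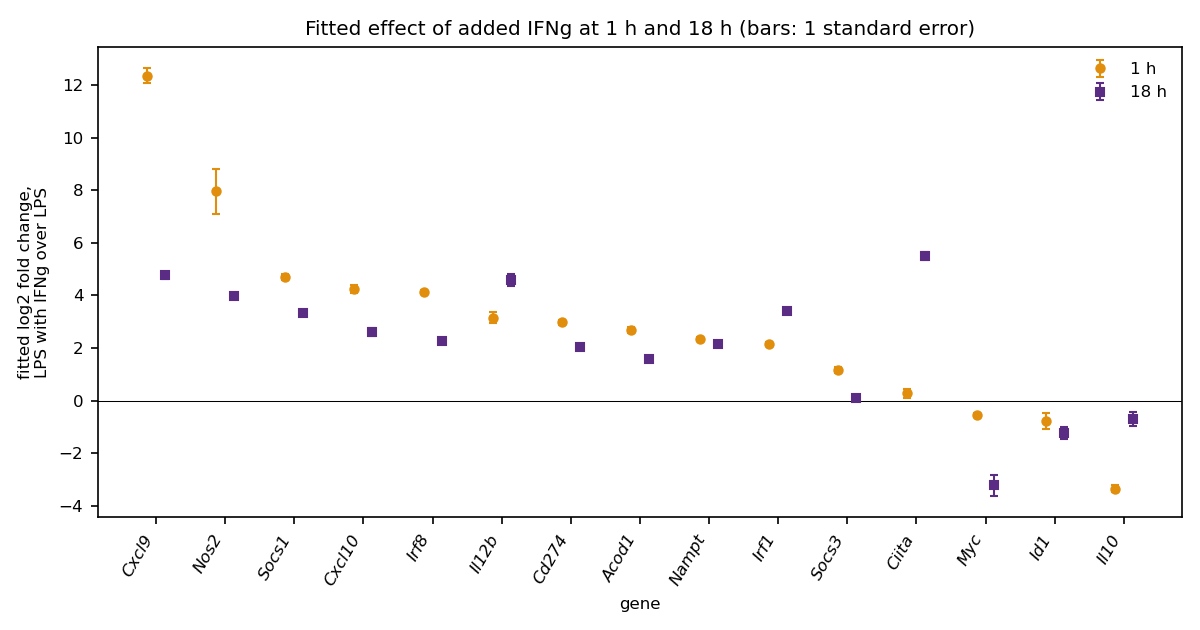
Fitted log2 fold change of LPS with IFNg over LPS at 1 h (circles) and 18 h (squares) for the 15 genes compared across time, with bars of 1 standard error. Cxcl9 fell from 12.35 to 4.76 and Ciita rose from 0.27 to 5.5 between the times, and Nos2 had no counts in the LPS group at 1 h, so its early value depends on the prior count.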

How the data were processed

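The authors deposited raw counts per gene, 1 file for each of 24 libraries, made with STAR and featureCounts on GRCm38, per the submitters' processing notes, which also name DESeq2 and deepTools. The labels name a stranded mRNA kit. Annotation release, strand setting and the treatment of multi-mapping reads are not given in the sources used here. Of 43629 gene IDs, 42548 were named from GENCODE M21. Groups came from the labels, 3 libraries each. Genes were kept by filterByExpr (minimum count 10), and untested genes held 0.13% of counts. Counts were scaled by TMM and tested with edgeR 4.0.16 (quasi-likelihood, R 4.3.3), with all 8 groups in 1 fit (common biological coefficient of variation 0.0736) and a Benjamini-Hochberg adjusted p threshold of 0.05. CPM are counts scaled to a common TMM-adjusted library size. Where a group had 1 to 3 counts, a ratio with an exact 95% interval is given, which covers counting error only.

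On simulated counts of this comparison over 12064 genes, 50 of 67 genes changed 1.5-fold, 58 of 67 changed 2-fold and 66 of 66 changed 4-fold were called, with 12 false among 186 calls. Changes were placed only in genes above a minimum level in the LPS libraries, so recovery of low-count genes was not measured. Far fewer genes were changed than the 1502 called here, and about as many up as down. The dependence of calls on scaling was therefore not measured either.

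The comparison, gene lists and tests were chosen with earlier results of these data known. Genes named are the 12 largest increases and 12 largest decreases among called, non-overlapping, named genes of at least 5 CPM (predicted genes left out), up to 4 called members of each of 24 lists, and a fixed panel. Some results of these parts are not reported here. Other list members were named after their values were seen, among them Il1rn, Zfp36, Jak1, Stat2, Irf9, Isg15, Usp18, Bst2, Oas1g, Tlr4, Cd80, Cd86, Dusp16 and Nlrp3. Alternatives were other scalings, no filter, DESeq2 1.42.0, limma-voom (limma 3.58.1), a fit of the compared groups alone, a replicate block and each library left out.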

Additional observations from a re-analysis of the deposited data

Results flagged for a closer look

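The effect of added IFNg differed between 18 h and 1 h by the interaction contrast of the edgeR fit, being more positive at 18 h for 2103 genes and more negative for 2360, whatever the size of either effect. Values here are the log2 effect at 18 h minus that at 1 h. Among the genes compared across time, the difference was above 0 for Ciita (5.23), Il10 (2.66), Il12b (1.43) and Irf1 (1.25). It was below 0 for Cxcl9 (-7.59), Myc (-2.68), Irf8 (-1.86), Cxcl10 (-1.60), Socs1 (-1.37), Acod1 (-1.10), Socs3 (-1.06) and Cd274 (-0.93). For Nos2 it was -3.99, a fitted value that depends on the prior count because the LPS group at 1 h had no counts. That group had 3 counts of Cxcl9, whose difference ran from -8.48 to -7.12 when 1 library was left out. For Myc it ran from -4.04, without LPS with IFNg 18 h replicate 2, to -2.16.

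Other named genes were picked because they were called in opposite directions at the 2 times. The difference was called for each, which that choice all but assured, so it adds no support. The 1 h calls of Smad6 and Nfkbiz were lost under some alternatives. Higher at 1 h and lower at 18 h were the chemokine genes Ccl12 (-3.62), Ccl4 (-2.49) and Ccl3 (-2.20). The same held for the arginase gene Arg2 (-2.63), Smad6 (-1.87), Jun (-1.82), Sod2 (-1.38), Pfkfb4 (-1.30), Ier3 (-1.28) and Nfkbiz (-1.06). Lower at 1 h and higher at 18 h were Ccl22 (2.99), Nfkbie (2.25), Slc2a6 (2.02), Ticam1 (1.58), Bbc3 (1.52), Slc7a11 (1.5) and Odc1 (1.29).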

How the results depend on the processing

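Of 123 named genes with a fit, 108 were called, and 104 of these under every alternative. The calls of Nfkbiz, Nlrc5, Nox1 and Smad6 were each lost under some. No alternative reversed the sign of a called gene, and 1237 to 1499 of the 1502 calls were kept. Leaving out 1 library gave 709 to 770 genes called higher and 529 to 614 lower. Replicate numbers were not taken as pairing, since the labels give no shared source and correlations of same-numbered libraries were 0.071, 0.066 and 0.11 at 1 h and 0.058, 0.16 and 0.11 at 18 h, not all above 0.1. Each library still correlated best with its own number at both times, a hint from the data and not the design. The fit with a replicate block called 902 genes higher and 743 lower. It also gave 2 lower IRF, 2 lower inflammasome, 2 higher LPS receptor, 5 higher MHC class I and 2 lower nitric oxide genes.

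With scaling to library size, 1011 genes were called lower, and so were 5 CC chemokines, 2 IRF, 2 inflammasome, 2 NAD+ and 1 MHC class I genes, and 0 phosphatases were called higher. List medians were then -0.06 (antioxidant), -0.65 (phosphatases), -0.01 (glycolysis), 0.07 (IRF), 0.09 (inflammasome), -0.13 (MHC class II), -0.1 (NADPH oxidase) and -0.08 (p53). Hmox1 (-0.04) and Parp1 (-0.03), not called, changed sign. Median-of-ratios scaling called 0 phosphatases higher and 2 inflammasome genes lower. With no filter, 5 CC chemokines were lower, 0 phosphatases higher, 5 MHC class I genes higher and 2 nitric oxide genes lower. The fit of the compared groups alone called 5 CC chemokines lower, 2 LPS receptor genes higher and 2 nitric oxide genes lower, with medians of 4.45 (guanylate-binding proteins), -0.11 (MHC class II) and 0.12 (nitric oxide). DESeq2 called 0 phosphatases and 0 NADPH oxidase genes higher. It gave a nitric oxide median of 0.68, and limma-voom one of 0.27, against 1.5 in the main fit. The cause was not tested.

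With narrower or longer motifs, GAS and ISRE matches were in 2.48% and 4.19% of promoters of genes called higher, 0.783% and 0.196% of those called lower and 0.972% and 0.919% of all. Within 100 bases, GAS matches were in 4.97%, 1.17% and 2.32%, and ISRE matches in 5.9% of those called higher and 1.07% of all.

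Over the fits that left out 1 library, 0 phosphatases were called higher. Called lower were 1 to 4 CC chemokines, 1 to 3 glycolysis, 1 to 2 IRF and 1 to 2 inflammasome genes. Called higher were 1 to 2 LPS receptor, 1 to 2 NAD+, 0 to 1 NADPH oxidase and 3 to 5 p53 genes. List medians ran from -0.05 to 0.04 (antioxidant), -0.32 to -0.14 (CC chemokines), -0.61 to -0.51 (phosphatases), 0.05 to 0.1 (glycolysis), 3.67 to 3.9 (guanylate-binding proteins) and 0.33 to 0.54 (IFNg signal). They ran from 0.09 to 0.23 (inflammasome), -0.13 to 0.00 (NAD+), 0.08 to 1.45 (nitric oxide) and -0.05 to 0.06 (p53). Genes not called changed sign within these fits: Cd38 ran from -0.82 to 0.63 and Parp1 from -0.02 to 0.1. Ido1, also not called and with 1 count over the 6 libraries, ran from 0.00 to 2.46. The call of the Nos2 time difference was lost without any 1 LPS library at 1 h.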
